A study of Mus musculus with 3 samples.

Results

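Islet macrophages were the 126 barcodes, of 11314 kept after filtering, that carried transcripts of macrophage genes. A kept barcode had at least 500 detected genes and at most 20% of its unique molecular identifiers (UMIs, each a counted RNA molecule) from mitochondrial genes. To be called a macrophage it also had Ins1 and Ins2 below 15% of its UMIs and a UMI of at least 4 of 9 genes, C1qa, C1qb, C1qc, Lyz2, Csf1r, Ctss, Tyrobp, Fcer1g and Adgre1, of which at least 1 was a C1q gene. S961 islets gave 86 macrophages among 3507 kept barcodes, recovered islets 19 among 3537 and control islets 21 among 4270. The cells were thus chosen by their UMIs of these 9 genes and of insulin, whose levels in macrophages are given as a description only.

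Macrophages are phagocytes of the innate immune system that take up dead cells and foreign material and digest them in lysosomes. Those resident in islets sit close to beta cells and blood vessels, present peptides to T cells on MHC class II molecules, make the complement protein C1q, and release cytokines and growth factors. Their dependence on the growth factor receptor Csf1r and their high Apoe, Lyz2 and MHC class II levels set them apart from the endocrine cells around them.

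RNA of single islet cells was counted with the droplet-based 10x 3' chemistry in male C57Bl6/J mice, retired breeders of 7 to 8 months that carried osmotic pumps for 2 weeks. Pumps of the S961 group delivered S961, a peptide that blocks the insulin receptor, with a labelled dose of 20 nM per week, those of the recovered group had been removed before islets were taken, and those of the control group held no S961. Recovered mice carry S961 in their label; neither the length of recovery nor the number of mice per library is given. Islets of all groups were cultured overnight and dissociated with TrypLE. With 1 library per group no difference could be tested, so every value below describes these libraries, and 95% intervals reflect counting error alone.

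The 3 libraries held 47651767 UMIs over 5905 barcodes (S961), 40102058 over 7805 (recovered) and 38265969 over 10880 (control), and kept barcodes had medians of 10028, 8580 and 6501.5 UMIs in the same order. Macrophages were shallower than this, with a median of 7446.5 UMIs and 2473.5 genes in the S961 library, 3471 UMIs and 1481 genes in the recovered library and 3022 UMIs and 1387 genes in the control library. In all they supplied 701094, 80632 and 65743 UMIs in that order. The S961 profile therefore rests on far more molecules than the other pair. A gene with no UMI could still be present at up to 4.28 CPM (UMIs of a gene per 1000000 macrophage UMIs) in S961, 37.2 CPM in recovered and 45.6 CPM in control macrophages, the level of 3 UMIs.

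Few barcodes lay near the marker count set by the rule. Among kept barcodes with low insulin and a UMI of a C1q gene, none had exactly 3 or exactly 4 of the 9 genes. Barcodes without a C1q gene were not counted. Just outside, 13 barcodes of the S961 library, 5 of the recovered library and 1 of the control library had 2 of the 9; just inside, 0, 4 and 3 macrophages had 5. All 9 genes were seen in 57 S961, 3 recovered and 6 control macrophages. No macrophage barcode was shared between libraries. Clustering of all kept barcodes gave 18 clusters, 1 of which held 121 of the 126 macrophages and 2 other barcodes.

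Genes outside the rule matched the label in most cells. In the S961 library the genes most restricted to macrophages were Fcgr1 and Fcgr4, receptors for the tail of antibodies, and C5ar1, the receptor for complement fragment C5a. Fcgr1 stood at 338 CPM in S961 macrophages against 0.0237 CPM in all other kept barcodes, with UMIs in 73 of 86 cells, and C5ar1 at 298 against 0.0237 CPM. Cd68, a lysosomal glycoprotein used to stain macrophages, had 1147 CPM in S961, 794 CPM in recovered and 776 CPM in control macrophages. Spi1, which encodes the myeloid transcription factor PU.1, had 388, 260 and 243 CPM in the same libraries. Of 7 dendritic cell markers, Flt3, Zbtb46, Xcr1, Cd209a and Ccr7 had no UMI in any macrophage, and the other pair had 3 UMIs in S961 macrophages. Of 6 neutrophil markers, 5, among them S100a8, S100a9 and Ly6g, had none, and Csf3r had 23 UMIs in S961, 2 in recovered and 1 in control macrophages. A wider list of 16 dendritic cell genes, which includes Itgax, an integrin that macrophages also express, summed to 650 CPM in S961, 360 CPM in recovered and 380 CPM in control macrophages.

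Some macrophages stood apart. In the recovered library, 2 barcodes with 10037 and 9471 UMIs held 9 and 8 of 9 stellate or fibroblast markers, and the label of macrophage does not describe them well. They carried 103 UMIs of the collagen gene Col3a1, against 0 in the other 17 recovered cells, and their 9 rule genes summed to 3076 CPM against 24311 CPM. Both lay outside the macrophage cluster, and together they gave 24.2% of all recovered macrophage UMIs. A further 8 cells, 3 S961, 3 recovered and 2 control, had more UMIs of the ferritin pseudogene Ftl1-ps1 (460) than of Ftl1 (21) and no UMI of Lyz2 or H2-K1, although they held 246 of C1qb. The same ferritin pattern occurred in 9.58% of S961, 10.0% of recovered and 6.44% of control kept barcodes of all types. Macrophage shares, and the main ratios and counts that involve the recovered library, are given with and without the cells that stood apart. CPM levels and list sums take in all cells unless stated otherwise. Leaving out the cells that stood apart left 79 S961, 14 recovered and 19 control macrophages. That setting also leaves out 4 S961 macrophages with at least 3 markers of ductal, endothelial, stellate or T or NK cells, 1 for each class.

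Transcripts of other cells were present in macrophage barcodes to unequal degrees. Beta cell markers summed to 10235 CPM in S961, 22348 CPM in recovered and 42773 CPM in control macrophages, of which Ins1 and Ins2 took most; these 2 genes were 0.727%, 1.77% and 3.46% of macrophage UMIs. Acinar markers summed to 919, 670 and 243 CPM, and at least 3 of them were seen in 42 S961, 7 recovered and 1 control macrophages. Endothelial markers summed to 412, 62.0 and 76.1 CPM. Markers of B or plasma cells reached 61.3, 24.8 and 45.6 CPM and those of T or NK cells 25.7, 0 and 0 CPM. The part these transcripts play in the differences below was not tested.

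Macrophages made up 2.45% of kept barcodes in the S961 library (95% interval 1.97 to 3.02), 0.537% in the recovered library (0.324 to 0.838) and 0.492% in the control library (0.305 to 0.751). The S961 interval lies above the other pair, and those overlap almost entirely. Since beta cells made up less of the S961 library, the share was also taken over kept barcodes with less than 15% insulin UMIs. It was then 5.04% (4.05 to 6.19) in S961, 1.57% (0.948 to 2.44) in recovered and 1.77% (1.10 to 2.70) in control, with the same order of S961 above both others. Depth moved with the share, since kept barcodes and macrophages were deepest in the S961 library. Barcodes that met the marker rule but had fewer than 500 genes numbered 5, 3 and 1, and those with over 20% mitochondrial UMIs 6, 1 and 1, and adding them back would not change the order. Without the cells that stood apart the shares of kept barcodes were 2.25% in S961, 0.396% in recovered and 0.445% in control. When every macrophage with at least 3 markers of another non-endocrine class was left out, mostly cells with acinar markers, 40 S961, 11 recovered and 20 control macrophages remained. The shares were then 1.14%, 0.311% and 0.468%. In both settings the recovered share lay below the control share.

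**Figure D1:**
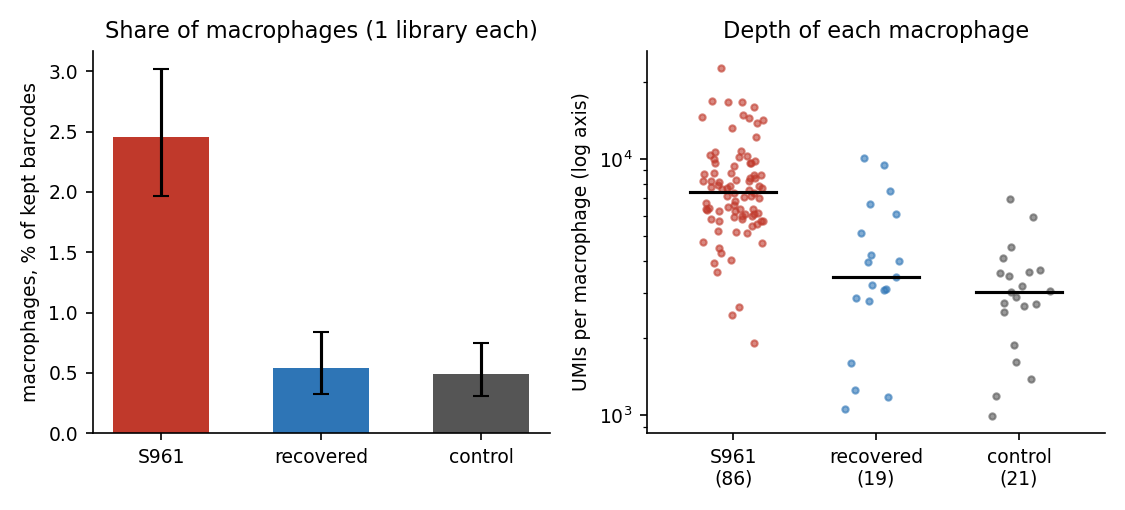
Left, macrophages as a percentage of kept barcodes in each of the 3 libraries, with exact binomial 95% intervals for counting error; right, UMIs of each macrophage on a log axis, with the number of cells in brackets and a black line at the median. The S961 bar stands at 2.45%, against 0.537% in recovered and 0.492% in control, and the S961 cells have the highest median depth, 7446.5 UMIs.

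The most abundant transcripts of S961 macrophages encode proteins of iron storage, lipid transport and the cytoskeleton. Fth1, the ferritin heavy chain, took 5.03% of UMIs in S961 macrophages, 5.06% in recovered and 7.47% in control. Apoe, the lipid carrier apolipoprotein E, took 3.21%, 2.45% and 2.50%. Per cell, Apoe ranged in S961 macrophages from 282 to 81350 CPM with a median of 28388 CPM, and the medians were 19566 CPM in recovered and 27678 CPM in control macrophages. Apoe lies on chromosome 7 at 19696109 to 19699188 (minus strand, GRCm38). Next came Ftl1, the ferritin light chain, and Tmsb4x, an actin-binding peptide.

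The genes of the C1q complement protein, which tags dying cells and immune complexes, were used by the rule and are only described. C1qa had 6069 CPM in S961, 3125 CPM in recovered and 5020 CPM in control macrophages, C1qb 6503, 3597 and 4822 CPM, and C1qc 4112, 2654 and 2875 CPM. The 3 genes lie next to each other on chromosome 4, within 136880129 to 136898803 on the minus strand (GRCm38). Of the other rule genes, Lyz2, which encodes lysozyme, had 4536 CPM in S961, 3919 CPM in recovered and 4852 CPM in control macrophages, and Ctss, the lysosomal protease cathepsin S, had 4184, 2059 and 3590 CPM. No rule gene was 2-fold different between S961 and control macrophages, with log2 ratios of S961 over control of -0.10 for Lyz2 and 0.52 for C1qc.

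MHC class II molecules hold peptides on the cell surface for CD4 T cells, and the invariant chain Cd74 escorts them to the compartment where they are loaded. Summed over the 18 genes of the class II list, S961 macrophages had 18607 CPM (95% interval 18289 to 18929), recovered macrophages 9240 CPM (8588 to 9927) and control macrophages 12853 CPM (12001 to 13750). All other kept barcodes had 113 CPM in the S961 library, 186 CPM in the recovered library and 48.8 CPM in the control library. Class II transcripts were thus highest in S961 macrophages. The recovered sum takes in the 2 barcodes with stellate markers, which gave 24.2% of recovered macrophage UMIs but only 6 of the 111 H2-Ab1 UMIs. H2-Aa, H2-Ab1 and H2-Eb1, which encode the alpha and beta chains, lie within chromosome 17 at 34257689 to 34316674 (GRCm38).

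H2-Ab1 had 3369 CPM in S961, 1377 CPM in recovered and 2206 CPM in control macrophages, from 2362, 111 and 145 UMIs. Per cell its level ran from 0 to 14607 CPM in S961 (median 3054 CPM), from 0 to 5007 CPM in recovered (median 904 CPM) and from 0 to 11413 CPM in control macrophages (median 1955 CPM). The ranges overlap widely, and cells without a UMI occurred in every library. The log2 ratio of S961 over control was 0.61 (0.37 to 0.86) for H2-Ab1, 0.39 (0.16 to 0.63) for H2-Aa, 0.73 (0.47 to 0.99) for H2-Eb1 and 0.48 (0.33 to 0.64) for Cd74. All 4 were higher in S961 macrophages by less than 2-fold, beyond counting error. H2-Eb1, the largest of the 4, was 1.65-fold higher (1.39 to 1.98). Without the richest cell of each library the ratios of H2-Ab1 and H2-Eb1 were 0.94 and 1.09, since 1 control macrophage held 42 of the 145 H2-Ab1 UMIs. Of the 9 class II genes measured none was past 2-fold, and their median was 0.52 against 0.04 over all genes. Over all genes 13.6% were 2-fold higher and 5.29% 2-fold lower.

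Recovered over S961, the ratios were -1.29 (-1.58 to -1.02) for H2-Ab1, -1.16 (-1.44 to -0.90) for H2-Aa, -1.01 (-1.27 to -0.76) for H2-Eb1 and -0.87 (-1.03 to -0.71) for Cd74. Without the cells that stood apart they were -0.90, -0.74, -0.92 and -0.46, so each remained lower in recovered macrophages but none was past 2-fold. H2-DMb1, a chain of the peptide exchange factor H2-DM, had 4 UMIs in recovered macrophages against 180 in S961 macrophages, a log2 ratio of -2.37 (-4.26 to -0.99), and 1 against 178 without those cells. Recovered over control, the ratio of Cd74 was -0.39 with all cells and 0.08 without those that stood apart, so its direction rests on them. These comparisons share libraries and are not independent of each other.

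In the recovered library macrophages held only 13.7% of all H2-Aa UMIs, against 89.1% in the S961 library and 94.8% in the control library. Barcodes with B or plasma cell markers carried H2-Aa there at 2070 CPM. B cell markers summed to 24.8 CPM in recovered macrophages from 2 UMIs, 61.3 CPM in S961 from 43 UMIs and 45.6 CPM in control from 3 UMIs. The recovered and control counts are too few to compare. Whether B cell RNA adds to the recovered macrophage values was not tested.

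Among the 86 S961 macrophages the class II genes varied together. Spearman's rho between per-cell CPM values was 0.92 for H2-Aa and H2-Ab1, 0.92 for H2-Ab1 and H2-Eb1 and 0.86 for Cd74 and H2-Ab1, while it was 0.25 for C1qb and H2-Ab1 and 0.71 for C1qb and C1qc. These values describe cells of 1 library that share its preparation. Depth had little relation to H2-Ab1 (rho of -0.15). Cells with much of 1 class II chain therefore had much of the others.

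**Figure D2:**
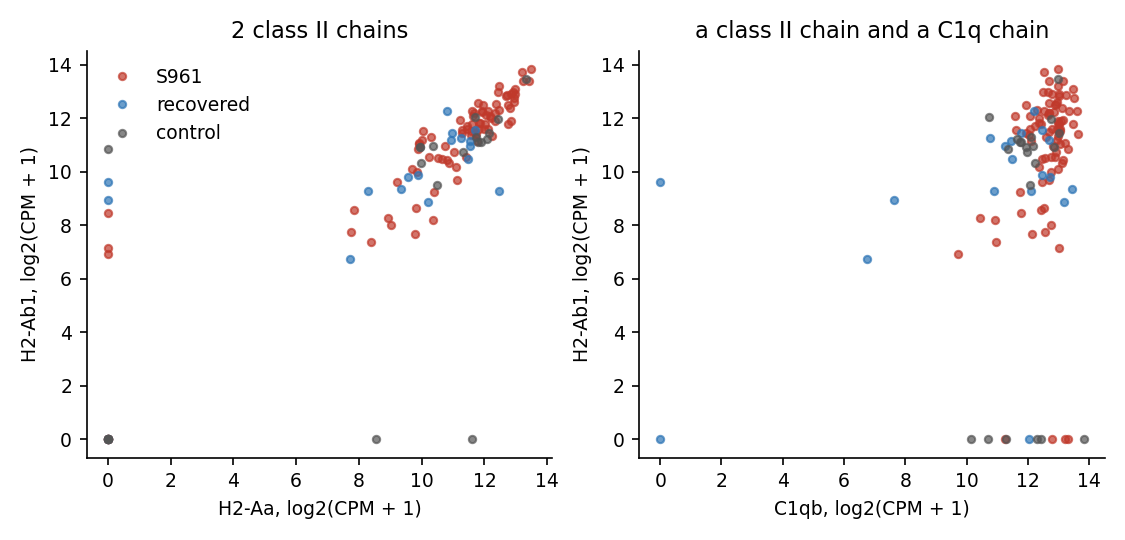
Each point is 1 macrophage; the axes give log2(CPM + 1) of H2-Aa against H2-Ab1 (left) and of C1qb against H2-Ab1 (right), coloured by library. The 2 class II chains lie along a line in the S961 cells (rho 0.92) and the C1qb panel shows no such line (rho 0.25), and points at 0 are cells with no UMI of the gene.

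The promoters of H2-Aa and H2-Eb1 are shown because the chains varied together in cells. Each window runs from 250 bases before to 50 bases after the transcript start, from RefSeq on GRCm38.p6, read 5' to 3' on the gene's strand. The window of H2-Aa is chr17:34287774-34288073 (minus strand) and that of H2-Eb1 is chr17:34305617-34305916 (plus strand). Capitals mark CCAAT or its reverse complement ATTGG, the core of the Y box through which the factor NF-Y is known to act on class II promoters.
H2-Aa: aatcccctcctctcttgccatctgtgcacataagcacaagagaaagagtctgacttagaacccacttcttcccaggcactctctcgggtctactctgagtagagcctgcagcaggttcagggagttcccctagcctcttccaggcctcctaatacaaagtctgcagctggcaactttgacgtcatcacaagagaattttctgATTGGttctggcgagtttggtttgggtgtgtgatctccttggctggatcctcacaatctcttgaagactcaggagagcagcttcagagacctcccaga
H2-Eb1: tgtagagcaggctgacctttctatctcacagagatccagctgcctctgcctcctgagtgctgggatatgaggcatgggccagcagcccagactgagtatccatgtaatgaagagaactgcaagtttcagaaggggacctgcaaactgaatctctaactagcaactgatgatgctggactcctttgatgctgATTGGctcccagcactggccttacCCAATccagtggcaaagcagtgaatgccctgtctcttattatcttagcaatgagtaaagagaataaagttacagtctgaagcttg
The H2-Aa window holds ATTGG 48 bases before the start, and the H2-Eb1 window holds ATTGG 59 bases and CCAAT 35 bases before it. Searched on both strands, the motif occurs in 37.4% of 32851 promoter windows of the same length. Of the 18 genes of the class II list 12 have a window, in 13 windows, 10 of which hold it. A match of 5 letters is frequent by itself and is given as a description of the sequence.

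Across all genes with at least 20 UMIs over the S961 and control macrophages, 658 of 4842 (13.6%) were at least 2-fold higher in S961 macrophages and 256 (5.29%) at least 2-fold lower, with a median log2 ratio of 0.04. Control macrophages held few UMIs, and 270 of the 4842 genes had none there. The 95% interval also excluded no change for 71 higher (1.47%) and 76 lower (1.57%) genes. Named genes below are those with the interval bound farthest from 0 in each direction.

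Among genes higher in S961 macrophages, Tmem176a, a membrane protein gene of myeloid cells, had 262 UMIs in 66 of 86 S961 macrophages, 68 UMIs in 7 of 19 recovered and 4 UMIs in 3 of 21 control macrophages. Its level was 374 CPM in S961 against 60.8 CPM in control, a log2 ratio of 2.62 (1.25 to 4.51). Vcam1, an adhesion molecule that binds integrins, had 272 CPM in S961 and 45.6 CPM in control macrophages (2.58, 1.01 to 4.87), and was seen in 37 of 86 S961 cells and 2 of 21 control cells. Control macrophages had fewer UMIs in which to find either gene. Cxcl14, a chemokine, had 466 CPM in S961, 174 CPM in recovered and 106 CPM in control macrophages, with a log2 ratio of S961 over control of 2.13 (1.07 to 3.46). Fos, an early response transcription factor, had 964, 1153 and 365 CPM in the same order and was 2.64-fold higher in S961 than in control macrophages (1.76 to 4.15). The other named genes were Tsn, Hfe, Srsf11, Ccl4 and Ptgs1, each with a single UMI in control macrophages against 103 to 116 in S961 macrophages, and Cxcl10 with none against 70. Of those 70, 50 lay in 1 S961 macrophage, and without it Cxcl10 stood at 28.9 CPM in S961, under the 45.6 CPM that 0 UMIs allow in control, so no direction remains. Their ratios are therefore loosely bounded, for example 3.31 (0.80 to 8.63) for Hfe, which regulates iron uptake. Ptgs1, the prostaglandin-forming enzyme COX-1, had a ratio of 3.27 (0.76 to 8.59).

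Genes lower in S961 macrophages included the metallothioneins Mt1 and Mt2, small proteins that bind zinc and copper. Mt1 had 428 UMIs in S961, 162 in recovered and 192 in control macrophages, which is 610, 2009 and 2921 CPM. Per cell it ran from 0 to 9422 CPM in S961 (median 275.5 CPM), from 236 to 11066 CPM in recovered (median 971 CPM) and from 272 to 10562 CPM in control macrophages (median 2214 CPM). Every recovered and control macrophage had an Mt1 UMI, against 73 of 86 S961 macrophages in spite of their greater depth. The log2 ratio of S961 over control was -2.26 (-2.51 to -2.0), so the S961 level was 0.209 times the control level (0.176 to 0.249). Mt2 had 78.4, 236 and 487 CPM, with a ratio of -2.63 (-3.29 to -1.96). The pair lie on chromosome 8, Mt1 at 94179082 to 94180327 and Mt2 at 94172664 to 94173568 (plus strand, GRCm38).

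Mt1 was not lower in macrophages alone. Beta cells had 649 CPM in the S961, 778 CPM in the recovered and 1461 CPM in the control library. Alpha cells had 274, 329 and 597 CPM, delta cells 367, 515 and 986 CPM and ductal cells 474, 561 and 908 CPM. Endothelial cells had 58.6, 174 and 345 CPM. Stellate or fibroblast barcodes had 123, 879 and 1698 CPM, from 96, 26 and 13 barcodes. Of these classes only acinar cells lacked this order, with 3820, 3341 and 3699 CPM. Free RNA from such cells can reach macrophage barcodes, and its part in the macrophage values was not tested. Control macrophages, at 2921 CPM, exceeded the beta cells of their library, whereas S961 macrophages, at 610 CPM, lay near theirs.

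The 300-base windows around the starts of Mt1 at chr8:94178839-94179138 and Mt2 at chr8:94172368-94172667 (plus strand, RefSeq, GRCm38.p6) are shown because these neighbouring genes were both lower in S961 macrophages. Capitals mark TGCNCNC or its reverse complement GNGNGCA, a loose form of the core of the metal response element bound by the zinc-sensing factor Mtf1. Any base was allowed at the first N, so a match need not be such a core.
Mt1: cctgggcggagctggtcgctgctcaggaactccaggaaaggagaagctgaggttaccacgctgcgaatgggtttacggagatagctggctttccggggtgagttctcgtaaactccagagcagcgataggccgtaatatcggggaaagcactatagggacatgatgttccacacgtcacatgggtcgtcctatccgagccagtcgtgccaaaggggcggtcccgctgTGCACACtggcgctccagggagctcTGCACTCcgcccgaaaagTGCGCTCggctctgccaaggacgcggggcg
Mt2: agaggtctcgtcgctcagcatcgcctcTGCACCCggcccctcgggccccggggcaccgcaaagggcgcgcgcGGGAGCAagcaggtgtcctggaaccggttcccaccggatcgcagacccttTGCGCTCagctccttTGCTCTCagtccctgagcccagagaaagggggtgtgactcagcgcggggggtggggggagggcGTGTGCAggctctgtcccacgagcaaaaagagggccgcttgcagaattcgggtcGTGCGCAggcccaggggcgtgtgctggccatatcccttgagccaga
The Mt1 window holds 3 matches, 23 bases before and 3 and 21 bases after the start, and the Mt2 window holds 6. On both strands the motif occurs in 51.0% of 32851 windows, at least 3 matches occur in 7.10% and at least 5 in 0.697%. The matches are letters in a window and are not shown to be bound here.

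The list of iron and oxidative stress genes, to which Mt1 and Mt2 belong, had 20 measured members of 22 in S961 over control. None was 2-fold higher and 5 were 2-fold lower, Mt1, Mt2, Prdx1, Gclm and Slc7a11, all with intervals clear of no change. Over all genes 13.6% were 2-fold higher and 5.29% lower. The list's median was -0.49 against 0.04 over all genes. Prdx1, a peroxide-removing enzyme, had 2436 CPM in S961, 3572 CPM in recovered and 5552 CPM in control macrophages, a log2 ratio of S961 over control of -1.19 (-1.35 to -1.02). In beta cells Prdx1 stood at 329, 289 and 324 CPM, without that order. Gclm, a subunit of the enzyme that starts glutathione synthesis, had 164, 161 and 548 CPM, a ratio of -1.74 (-2.29 to -1.16), and in beta cells 206, 199 and 179 CPM. Slc7a11, the cystine importer that feeds glutathione synthesis, had 75.6, 322 and 243 CPM, with a ratio of -1.69 (-2.52 to -0.78). Hmox1, which degrades heme, had 1164, 1588 and 2023 CPM, but 1 control macrophage held 89 of the 133 control UMIs. Its ratio of S961 over control was -0.80 with all cells and 0.51 without the cell richest in Hmox1 of each library, so its direction rests on 1 cell. Txnrd1, thioredoxin reductase, did not differ beyond counting error (-0.16, -1.06 to 0.89). Ferritin also ran lower, with ratios of -0.57 (-0.62 to -0.53) for Fth1 and -0.65 (-0.70 to -0.59) for Ftl1. A single control macrophage held 22.4% of the control Fth1 UMIs, and a single one 18.7% of the control Ftl1 UMIs. Summed, the list took 87707 CPM in S961, 88278 CPM in recovered and 136303 CPM in control macrophages. The median cell had 82984, 82506 and 100674 CPM in the same order, a smaller difference.

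Other named genes lower in S961 macrophages were Cxcl2, a neutrophil-attracting chemokine (37 UMIs in S961 against 15 in control macrophages, -2.11, -3.01 to -1.14), Arg1, arginase 1 (-1.54, -2.13 to -0.91), Gstm1, S100a10, Alas1 and H2-Q7. A single control macrophage held 17 of its library's 30 Arg1 UMIs, and without the richest cell of each library the ratio was -0.65, so that call rests on 1 cell.

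**Figure D3:**
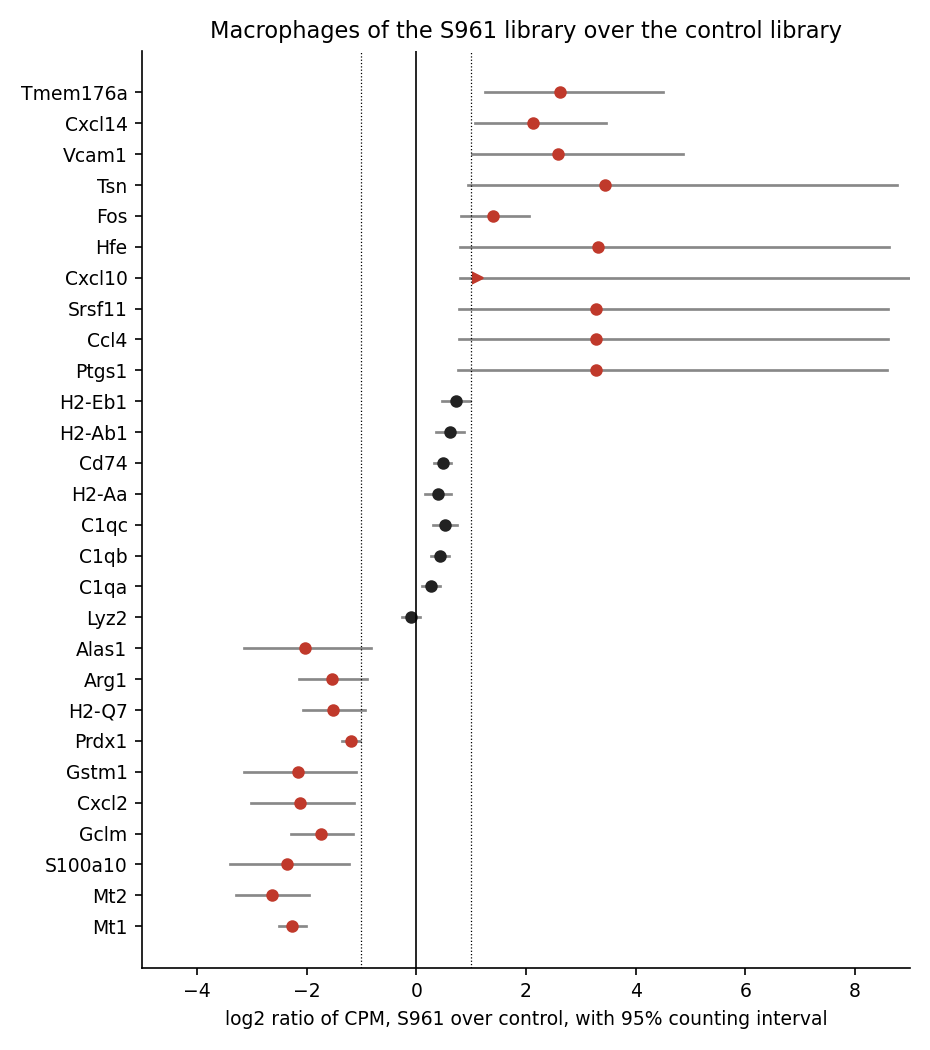
Log2 ratio of CPM in S961 over control macrophages for the 20 named genes, 4 class II genes and 4 rule genes, with 95% intervals for counting error; dotted lines mark 2-fold, red points are past it, and the triangle marks Cxcl10, a lower bound because control macrophages had 0 UMIs, which rests on 1 S961 cell. Class II genes sit between 0.39 and 0.73 with narrow intervals, while Mt1 and Mt2 sit at -2.26 and -2.63.

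Il1b encodes interleukin 1 beta, an inflammatory cytokine that impairs beta cells at high levels. It had 414 UMIs in 55 of 86 S961 macrophages, 57 in 7 of 19 recovered and 17 in 6 of 21 control macrophages, which is 591, 707 and 259 CPM. The highest cell reached 5247 CPM in S961, 4322 CPM in recovered and 3363 CPM in control, and the median cell had 226, 0 and 0 CPM. S961 over control, the log2 ratio was 1.19 (0.49 to 1.98), or 2.28-fold (1.41 to 3.96), and recovered over control it was 1.45 (0.65 to 2.33), or 2.06 without the cells that stood apart. One control macrophage held 9 of the 17 control UMIs, and without the richest cell of each library the ratio of S961 over control was 2.08. After each macrophage was thinned to 2000 UMIs, Il1b was seen in 47.1% of 85 S961 (36.1 to 58.2), 46.7% of 15 recovered (21.3 to 73.4) and 25% of 16 control macrophages (7.27 to 52.4), against 64.0%, 36.8% and 28.6% before thinning. These intervals overlap. Beta cells, which should hold little of it, had it in 1.29%, 1.46% and 1.74% after thinning and 7.38%, 6.79% and 6.45% before, at median depths of 13937, 10438 and 7586.5 UMIs. Macrophages held 71.8% of all Il1b UMIs in the S961 library but 22.3% in the recovered and 6.56% in the control library.

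**Figure D4:**
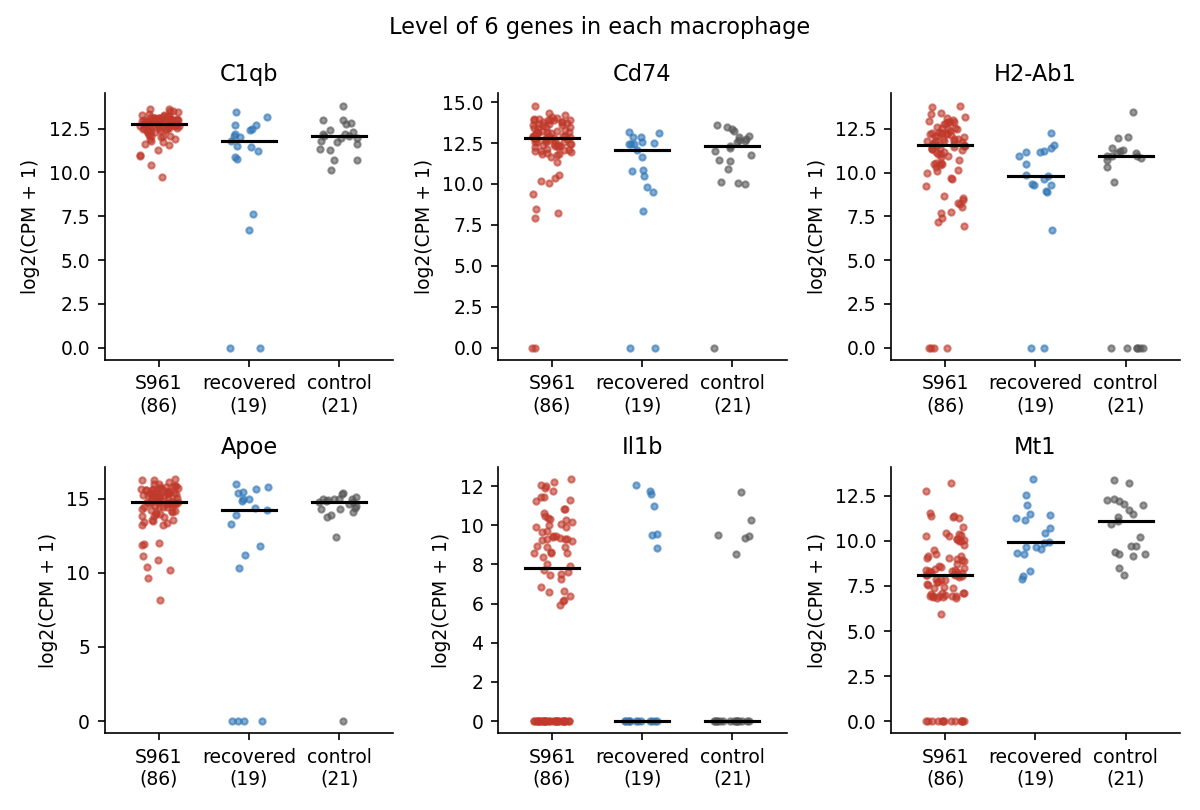
Level of 6 genes in each macrophage as log2(CPM + 1), by library, with the number of cells in brackets and a black line at the median. Mt1 is lowest in S961 cells (median 275.5 CPM, against 971 CPM in recovered and 2214 CPM in control), H2-Ab1 is highest there (median 3054 CPM), and most recovered and control cells have no Il1b UMI.

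Of 11 measured cytokine and growth factor genes, only Il1b was 2-fold higher in S961 over control macrophages, and Tnf, Osm and Gdf15 were 2-fold lower. Over all genes 13.6% were higher and 5.29% lower. Without the cells that stood apart, 10 genes of the list were measured, Il1b was still higher and only Osm was still lower. For Osm the ratio was -1.56, and -0.76 without the richest cell of each library. Tnf, tumour necrosis factor, had 58 UMIs in 32 of 86 S961 macrophages, 3 in 3 of 19 recovered and 11 in 9 of 21 control macrophages, and its interval included no change (-1.02, -1.96 to 0.06). Il10, an anti-inflammatory cytokine, had 1, 0 and 1 UMIs. Tgfb1 stood at 351 CPM in S961, 248 CPM in recovered and 350 CPM in control macrophages, and Igf1, a growth factor, at 150, 236 and 137 CPM. Pdgfb, a platelet-derived growth factor chain, had 62 UMIs in 37 S961 macrophages, 1 in recovered and 4 in control.

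Of 10 measured chemokines, Ccl4, Ccl6 and Cxcl10 were 2-fold higher and Cxcl2 was 2-fold lower in S961 over control macrophages. Over all genes 13.6% were higher and 5.29% lower. The list median was 0.28. The Cxcl10 call rests on the 1 S961 cell named above. Ccl4, which attracts T cells and other leukocytes, had 104 UMIs in 31 of 86 S961 macrophages, 101 in 4 of 19 recovered and 1 in control. In the recovered library 2 cells held 48 and 40 of those UMIs. Ccl3, its neighbour on chromosome 11, had 84 UMIs in S961, 32 in recovered and 4 in control macrophages, and its S961 over control interval included no change (0.98, -0.43 to 2.89). Ccl6 had 118 UMIs in 51 S961 macrophages, 15 in 7 recovered and 2 in control (2.47, 0.58 to 5.53). Ccl2, the monocyte attractant, was rare, with 28, 12 and 2 UMIs. Pf4, a chemokine also made by resident macrophages, was confined mainly to a subset, with 14 of 86 S961 macrophages holding 89.5% of its 640 UMIs there and 43 having none.

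Of 21 measured genes of Fc receptors and phagocytosis, 3 were 2-fold higher in S961 over control macrophages and none lower, with a median of 0.34. That share is close to the 13.6% of all genes that were 2-fold higher. Cybb, the catalytic subunit of the phagocyte oxidase, had 414 CPM in S961, 347 CPM in recovered and 167 CPM in control macrophages (1.31, 0.44 to 2.32), and Syk, the kinase downstream of Fc receptors, had a ratio of 1.99 (0.10 to 5.06) with 2 UMIs in control. The third, Fcgr2b, had an interval that included no change. Fcgr3, a low-affinity antibody receptor, had 665, 422 and 350 CPM (0.93, 0.32 to 1.60).

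Lysosomal genes differed little. Over 28 measured, the median ratio of S961 over control was 0.29 against 0.04 over all genes. Lamp2, a lysosomal membrane protein, alone was past 2-fold (1.09, 0.18 to 2.17). The proteases Ctsb and Ctsd had 4512 and 2998 CPM in S961, 2704 and 1984 CPM in recovered, and 3605 and 2388 CPM in control macrophages. Of 16 lipid handling genes, Fabp4 and Abcg1 were 2-fold higher and Cd9 was 2-fold lower. Those lipid counts are close to the shares over all genes, 13.6% higher and 5.29% lower. Fabp4, a fatty acid carrier, rested on 1 S961 cell with 231 of 240 UMIs. Abcg1, a cholesterol exporter, had 108 UMIs in 49 S961 macrophages against 3 in control (1.76, 0.17 to 4.06). Trem2, a lipid-sensing receptor, had 1269 CPM in S961, 819 CPM in recovered and 913 CPM in control macrophages (0.48, 0.10 to 0.88).

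Of 20 genes of NF-kB and inflammatory feedback, 5 were 2-fold higher and none lower, against 13.6% and 5.29% of all genes. The interval was clear of no change for Zfp36 alone, which speeds the decay of cytokine messages (1.24, 0.34 to 2.32). Of 23 transcription factors, Fos and Runx1 were 2-fold higher. Of 24 interferon response genes, 3 were higher and 1 lower, none with an interval clear of no change. Of 12 resident and scavenger genes, Selenop, a selenium carrier, was higher (472 CPM in S961, 384 CPM in recovered, 167 CPM in control; 1.5, 0.64 to 2.51), and Lyve1, Cd163 and Timd4, which mark resident macrophages of other tissues, had no UMI in any macrophage. Of 8 complement genes, Itgam was higher (1.73, 0.14 to 4.03). The list of 20 monocyte and neutrophil genes summed to 1227 CPM in S961, 2741 CPM in recovered and 1202 CPM in control macrophages. The median cell had 921, 971 and 396 CPM in the same order, so the recovered sum rests on part of its cells. Ifitm3, an antiviral membrane protein gene, gave 517 of the list's 860 UMIs in S961 macrophages. Ccr2 and Ly6c2, which mark classical monocytes, had 41 and 1 UMIs in S961 macrophages, 0 and 0 in recovered, and 2 and 0 in control.

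Transcripts of dividing cells were scarce at this depth, and the list counts that follow stand beside 13.6% of all genes higher and 5.29% lower. Mki67, a marker of dividing cells, had 1 UMI in S961 macrophages and none in the others, and Top2a had none. Of 7 measured cell cycle genes, 1 was higher and 1 lower. Insr, the receptor that S961 blocks, had 2 UMIs in S961, 2 in recovered and 1 in control macrophages, too few to compare. Of 7 measured genes of insulin and IGF signalling, Pik3r1, Pik3cg and Gsk3b were past 2-fold in S961 over control, each with an interval that included no change. Of 21 glycolysis genes 1 was higher, of 8 heat shock genes 1 was higher, of 24 surface receptor genes 2 were higher and 2 lower, of 14 matrix genes 3 were higher and 1 lower, of 6 monocyte and neutrophil genes 1 was higher, and both measured dendritic cell genes lay within 2-fold.

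In recovered over S961 macrophages, 343 of 4970 genes (6.90%) were at least 2-fold higher and 793 (16.0%) at least 2-fold lower, with a median log2 ratio of -0.06. The interval excluded no change for 180 (3.62%) and 135 (2.72%). Without the cells that stood apart, 341 of 4345 were higher and 573 lower, with a median of -0.02. Of the 10 named higher genes, 7, among them G0s2, Rarres2, Col6a1, C3, Serping1 and Mfge8, had most of their recovered UMIs in the 2 barcodes with stellate markers, so they are not read as macrophage values. The others were Cxcl10 (3.82, 3.38 to 4.27), Rsad2 (3.62, 3.05 to 4.20) and Ccl4 (3.08, 2.67 to 3.49), with 4.33, 4.19 and 3.74 without the cells that stood apart.

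Cxcl10 is an interferon-induced chemokine and Rsad2 an antiviral enzyme. They and Ifit1, Ifit2, Ifit3 and Isg15, 6 interferon response genes chosen after their values were seen, had 344 UMIs in S961, 324 in recovered and 20 in control macrophages, which is 491, 4018 and 304 CPM. The recovered total rested on 2 cells. These had 3976 and 2869 UMIs in all and held 189 and 125 of the 324, or 58.3% and 38.6%, while 14 of 19 recovered macrophages had none. In S961 macrophages 6 of 86 cells had at least 10 of these UMIs, the highest 107, and 38 had none, and no control macrophage had more than 7. The same 2 recovered cells held 40 and 48 of the 101 Ccl4 UMIs.

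**Figure D5:**
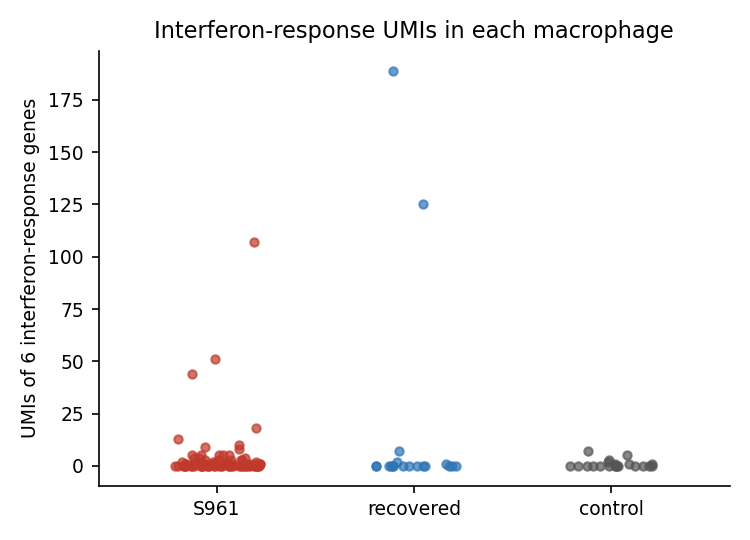
UMIs of 6 interferon response genes (Cxcl10, Rsad2, Ifit1, Ifit2, Ifit3 and Isg15) in each macrophage, by library. The recovered library has 2 cells with 189 and 125 UMIs above a floor near 0, the S961 library has 1 cell with 107, and no control cell has more than 7.

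Of 27 measured interferon response genes, 10 were 2-fold higher and 5 were 2-fold lower in recovered over S961 macrophages, with a median of 0.82. Without the cells that stood apart, 13 of 25 were higher and 5 lower, but that setting keeps the 2 cells rich in these UMIs. Of all genes 6.90% were higher and 16.0% lower. Summed, the list had 7007 CPM in recovered, 4947 CPM in S961 and 4518 CPM in control macrophages. The median cell had 1256, 3707 and 2199 CPM in the same order, so the higher recovered sum rests on part of its cells. One of the lower genes was Bst2, which tethers viruses to the cell surface. It had 322 CPM in recovered, 1245 CPM in S961 and 1050 CPM in control macrophages, a log2 ratio of recovered over S961 of -1.95 (-2.57 to -1.39) and of -1.51 without the cells that stood apart.

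Metallothioneins were higher in recovered than in S961 macrophages, and Mt1 was also higher in every other class named above except acinar cells. In macrophages the log2 ratio was 1.72 (1.45 to 1.98) for Mt1 and 1.59 (0.75 to 2.36) for Mt2. Without the cells that stood apart these were 2.03 and 1.95. Slc7a11 had a ratio of 2.09 (1.36 to 2.80), and 2.62 without those cells. Of 20 iron and oxidative stress genes 4 were 2-fold higher and 1 lower, and of 9 class II genes none was higher and 5 were lower, 1 of 9 without the cells that stood apart. Of 21 genes of Fc receptors and phagocytosis none was higher and 7 were lower, or 3 without those cells. Over all genes, with all cells, 6.90% were higher and 16.0% lower. Mpeg1, a pore-forming protein of phagocytes, had 248 CPM in recovered against 770 CPM in S961 macrophages (-1.63, -2.36 to -0.99, and -1.23 without those cells). Ly86, which pairs with a Toll-like receptor homologue, had 211 against 829 CPM (-1.97, and -1.43 without those cells), and Cd72, an inhibitory receptor, 86.8 against 361 CPM (-2.06, and -2.32 without those cells). Hfe and Slc37a2 had no UMI in recovered macrophages against 106 and 64 in S961 macrophages.

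Other lists had smaller shares past 2-fold in recovered over S961, or counts that turned on few genes. They stand beside 6.90% of all genes higher and 16.0% lower with all cells. Lysosomal genes had 3 lower of 28 with a median of -0.59, which became 0 lower and -0.23 without the cells that stood apart. With all cells, chemokines had 5 higher and 1 lower of 11, complement genes 3 and 2 of 11, surface receptors 2 and 6 of 25, resident and scavenger genes 0 and 3 of 12, lipid handling 0 and 2 of 16, NF-kB genes 2 and 3 of 20, transcription factors 3 and 3 of 23, and cytokines and growth factors 2 and 2 of 11. Without the cells that stood apart these counts were 3 and 2 of 9 for chemokines, 1 and 0 of 8 for complement, 2 and 3 of 23 for surface receptors, 1 and 5 of 12 for resident and scavenger genes, 0 and 1 of 15 for lipid handling, 1 and 5 of 20 for NF-kB, 0 and 3 of 21 for transcription factors, and 2 and 3 of 10 for cytokines and growth factors. C3 and Serping1, 2 of the higher complement genes, came mostly from the barcodes with stellate markers. Pf4 had a ratio of -0.27 with all cells and -1.99 without those that stood apart, since 1 of those cells held 41 of its 61 recovered UMIs.

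In recovered over control macrophages only 1080 genes had 20 UMIs, because both libraries held few cells. Of these 108 (10.0%) were at least 2-fold higher and 73 (6.76%) lower, with a median of 0.03. The interval excluded no change for 91 (8.43%) and 57 (5.28%). Without the cells that stood apart 48 of 787 were higher and 61 lower. Among the 10 named higher genes, 7 again had most of their recovered UMIs in the barcodes with stellate markers. Tmem176a was one of them: its ratio was 3.79 with all cells and 0.31 without those that stood apart. Fos had a ratio of 1.66 (1.00 to 2.37), and 2.00 without those cells. Named genes lower in recovered macrophages were Gclm (161 CPM in recovered against 548 CPM in control, -1.76, -2.80 to -0.81), Ccl5, a T cell attractant (186 against 715 CPM, -1.94), Cstb, a cathepsin inhibitor (521 against 1521 CPM, -1.55), Arg1, Aprt, Pla2g7, Bst2, Mpeg1, Ms4a7 and Ftl1. Without the cells that stood apart the ratios of Gclm, Ccl5 and Cstb were -1.54, -1.34 and -1.90, while those of Pla2g7 and Ms4a7 were -0.85 and -0.69 and no longer past 2-fold. Ftl1 had a ratio of -0.82 with all cells and -0.29 without those cells. Mt1 had a ratio of -0.54 (-0.85 to -0.23) and of -0.08 without the cells that stood apart, while Prdx1 had -0.64 and -0.34. Of 15 measured iron and oxidative stress genes none was higher and 3 were lower, of 5 class II genes none passed 2-fold either way, and of 13 interferon response genes 5 were higher and 2 lower. Without the cells that stood apart, 1 iron gene (Slc7a11) was higher and 2 were lower, 1 class II gene (H2-DMa) was higher, and 6 interferon response genes were higher and 1 lower, of the same numbers measured. Of 4 measured monocyte and neutrophil genes 3 were higher with all cells, and 0 of 2 without those that stood apart.

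Cell-to-cell differences in the S961 library exceeded counting error for several abundant macrophage genes. The variance over that expected from counting was 96.4 for Apoe, 61.4 for Lyz2, 60.6 for Pf4, 35.1 for Ccl5, 28.6 for Cd74, 22.4 for H2-Ab1 and 16.0 for Il1b, against 9.14 for C1qa and a median of 1.37 over 1286 genes. This quantity grows with a gene's abundance at the same relative spread. No order of the genes, and no contrast with the median gene, is therefore read from it. A single S961 macrophage held 94.2% of the Gcg UMIs of all S961 macrophages. The S961 macrophage highest in alpha cell markers had them at 112258 CPM, against 172678 CPM in alpha cells of that library. The cells that stood apart were chosen without endocrine markers. Whether such a barcode holds RNA of more than 1 cell was not tested.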

How the data were processed

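Single-cell RNA of islets was measured in 3 libraries, 1 per group. The deposited values are UMI counts per gene and barcode, made by the authors with Cell Ranger (version not given in the sources used here) on mouse build mm10, per the submitters' processing notes. The table holds 31053 genes, of which 30416 symbols matched 1 entry of GENCODE M21 for coordinates on GRCm38. Barcodes were assigned to libraries by the suffix the labels give.

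Counts were summed over the macrophages of a library and scaled to 1000000 to give CPM. Log2 ratios carry exact conditional binomial 95% intervals and shares carry exact Clopper-Pearson intervals, all for counting error only, since PCR and cell sampling add more. A count of 0 was set to 3 UMIs, giving a bound, and a bound without direction was set to 0. Genes were compared with at least 20 UMIs over both libraries. No p-value was computed, as 1 library per group leaves no replicates. Python 3.11.15, numpy 2.4.6, scipy 1.17.1, pandas 2.3.3, scikit-learn 1.9.0, matplotlib 3.10.9, scanpy 1.11.5 and leidenalg 0.10.2 (resolution 0.5) were used, and the ratio and its interval were tested on simulated data. Scrublet (expected rate 0.06) called 4 S961, 0 recovered and 0 control macrophages among 77, 22 and 4 kept barcodes; its calls were kept in, and leaving them out was an alternative. Since it marked so few control barcodes, doublets remain possible.

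Named genes were, per comparison, the 10 highest and the 10 lowest log2 ratios, ordered by whichever end of the interval lay closer to 0. They needed at least 30 UMIs in the pair of libraries together and 50 CPM in 1 of them. The rule skipped mitochondrial and ribosomal protein genes, gene models without a name, markers of other cell types, and genes whose macrophage CPM was under 20% of that in another cell class. Key genes, genes leading macrophages over other barcodes, and the most changed members of 21 gene lists were added. The macrophages, the rule and the lists were chosen with earlier results of these data known, and leaving out the cells that stood apart was chosen after seeing the data.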

Additional observations from a re-analysis of the deposited data

How the results depend on the processing

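Leaving out every macrophage with at least 3 markers of another non-endocrine class, mostly acinar, gave shares of 1.141% in S961 and 0.311% in recovered. The numbers of genes 2-fold higher and lower were then 360 and 116 in S961 over control, 202 and 438 in recovered over S961, and 53 and 46 in recovered over control. After thinning to 2000 UMIs these numbers were 179 and 61, 99 and 227, and 40 and 21, and with a minimum of 50 UMIs 233 and 44, 79 and 275, and 34 and 13, since both leave fewer genes to count. A minimum of 3 UMIs gave 1295 lower genes in S961 over control, 1705 higher in recovered over S961, and 988 higher and 1064 lower in recovered over control. The mean of each cell's CPM gave 389 lower genes in S961 over control. Without the macrophage that held most UMIs of each gene, 149 were lower in S961 over control and 195 higher in recovered over S961. The number higher in recovered over control was 64 with at least 6 of the 9 rule genes, 57 within the macrophage cluster, 53 without cells with 3 markers of another class other than acinar, and 48 without all cells that stood apart. Among ratios past 2-fold with an interval clear of no change, directions turned for Ccl2 in recovered over S961 (-0.18 with at least 6 of the 9 genes), and in recovered over control for Tmem176a (-0.23 without cells with 3 markers of another non-endocrine class) and Spp1 (0.30 after thinning). Smaller ratios also changed sign, among them Hmox1 in S961 over control (0.51 without the macrophage richest in it) and Igf1 in recovered over S961 (-1.06 without the cells that stood apart). The cause was not tested. The counts that follow take each gene or list once under each alternative, so they are not numbers of genes or lists. Ratios whose direction turned are counted apart. In S961 over control 28 gene ratios moved and 843 did not, against 149 and 663 in recovered over S961 and 118 and 619 in recovered over control. No list median moved in S961 over control and 378 did not. In recovered over S961 7 moved and 371 did not, and in recovered over control 4 and 366. No paired analysis was possible because each group is 1 library with no replicates. The recovered and control macrophages, 19 and 21 cells, limit what can be seen, since genes below 37.2 and 45.6 CPM may go uncounted there.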

Other observations

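C1qa transcripts were not restricted to macrophages, while those of its neighbours C1qb and C1qc nearly were. Macrophages held 4255 C1qa UMIs in the S961 library and other kept barcodes 2173. These counts were 252 and 1138 in the recovered library, and 330 and 1005 in the control library. For C1qb, macrophages held 4559 UMIs and other barcodes 72 in the S961 library, against 290 and 0 in the recovered library and 317 and 21 in the control library. C1qc followed C1qb, with 2883 and 39 UMIs in the S961 library. Macrophages held 0.933 C1qa UMIs per C1qb UMI in the S961 library and 1.04 in the control library, against 30.2 and 47.9 in other barcodes of the same libraries. Outside macrophages, C1qa stood in the S961 library at 121 CPM in delta cells, 84.3 CPM in ductal cells and 56.6 CPM in beta cells. What gave the C1qa counts of other barcodes was not tested.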
